A study of Rattus norvegicus with 4 samples.

Results

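The genes of the nuclear pore and of nuclear transport were followed in RTEC11, a line of rat tracheal epithelial cells, after a change of culture temperature. The members were the probe sets annotated to exactly 1 gene symbol that names a nucleoporin (Nup genes, Aaas, Sec13, Pom121), a transport receptor (Kpna, Kpnb, Ipo, Xpo and Tnpo genes, Cse1l), or a part of the Ran system (Ran, Rangap1, Nutf2 and Ranbp genes). The members were chosen by symbol and not by value, but with earlier results of these data known. They came to 58 of 15866 probe sets and 50 of 10411 genes. Cells had been kept for 3 days at the nonpermissive temperature of 39 °C (2 arrays) or at the permissive temperature of 33 °C (2 arrays). The cells at both temperatures carried the same transgene, a temperature-sensitive large T antigen of simian virus 40 inherited from the transgenic rats the line came from. The antigen binds p53 and the retinoblastoma proteins and loses its activity at 39 °C, so temperature and antigen activity changed together and cannot be told apart. In such bulk RNA, fewer cells of a type and less RNA per cell cannot be told apart either. RTEC11 is a single line, and the labels do not say whether the 2 arrays of a temperature came from separate cultures. The spread behind the p-values is thus that between arrays alone and may be technical, and the number of arrays limits the precision.

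Nuclear pores are channels through the nuclear envelope, built from scaffold rings, membrane anchors, a central channel lined with phenylalanine-glycine repeats, a cytoplasmic face and a nuclear basket. Importins carry cargo inward and release it when they meet Ran bound to GTP, while exportins take cargo outward only together with Ran-GTP. Rcc1 loads Ran with GTP in the nucleus and Rangap1 makes it hydrolyse the GTP in the cytoplasm, which gives transport its direction. Growing cells use the pores to bring ribosomal proteins into the nucleus and to send ribosomal subunits, tRNA and mRNA out.

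Levels below are log2(intensity + 16) after quantile normalization, a change is the level at 39 °C minus that at 33 °C on this scale, and a gene is called when its limma p-value, adjusted by Benjamini-Hochberg over 7016 genes, is under 0.05. Replicate arrays correlated at 0.981 at 39 °C and at 0.978 at 33 °C over all probe sets other than controls, while arrays of different temperature correlated at 0.951 to 0.953. Of 10 markers of airway epithelium 9 had a probe set and 7 lay above the limit for dim genes (Cdh1, Epcam, Krt8, Krt14, Krt18, Krt19 and Scgb1a1). Krt5 and Tp63, markers of basal cells, lay below it. Krt14, a keratin that basal cells also express, was at 13.50 and 13.54 at 39 °C and at 13.58 and 13.61 at 33 °C. The summed deposited intensity of these epithelial markers was 68703.2 and 67898.1 at 39 °C, against 57441.6 and 61286 at 33 °C. Such sums are not normalized, and the median intensity of an array was 174.3 and 171.1 at 39 °C, against 152.7 and 155.6 at 33 °C. After normalization the epithelial markers did not move alike. Krt8, Epcam, Krt19 and Scgb1a1 were called higher, Krt18 lower (-0.36), and Krt14 and Cdh1 were not called. Of 5 fibroblast markers only Col3a1 lay above the limit, and the list summed to 376.7 and 257.4 at 39 °C, against 176.3 and 139.8 at 33 °C. Of 2 smooth muscle markers Des lay above it, with sums of 311 and 235.6 at 39 °C, against 72.5 and 105 at 33 °C. The leukocyte markers Cd68 and Ptprc (50 and 38 at 39 °C, against 23.6 and 18.5 at 33 °C) and the endothelial marker Pecam1 (at most 64.5 on any array) lay below it. On the normalized log2 scale Col3a1 (1.61 ± 0.27, SE) and Des (0.83 ± 0.27, SE) were called higher at 39 °C, where 23.1% of all genes tested were higher. Their means at 33 °C, 6.16 and 6.47, lay below the limit for dim genes of 6.6. Scgb1a1, the secretory protein of club cells, was the epithelial marker with the widest gap, at 9.35 and 9.06 at 39 °C and at 5.84 and 6.26 at 33 °C on the log2 scale. The part of these markers in the results below was not tested.

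At 39 °C the nuclear transport genes that moved were mostly lower, with falls in the pore and among the importins. The 5 exportins tested were too few to be set against the share of all genes. Of 49 members tested, 19 were called lower (38.8%) and 4 higher (8.16%), with 26 not called. Of all genes tested, 49.1% were called, 26.1% lower and 23.1% higher. The median change of the members was -0.15, beside -0.04 for all genes tested. By class, 11 of 23 pore genes were lower and 0 higher, 6 of 14 importins were lower and 2 higher, 2 of 5 exportins were lower and 0 higher, and 0 of 5 Ran cycle genes were lower and 1 higher. Of 2 other Ran-binding genes 1 was higher. Without nonpermissive replicate 1 the calls came to 10 members lower, 5 of them pore genes and 3 importins, and to 2 higher. At an unadjusted p under 0.05 by limma, the classes with a count of 0 also had 0 pore genes higher, 0 exportins higher and 0 Ran cycle genes lower. The arrays did not overlap between temperatures for 29 members that were below and 10 that were above at 39 °C, where 40.0% of all genes tested were below and 35.0% above. Ranbp17, a relative of the exportins, was the 1 member gene left untested as dim. Most changes were under 2-fold, and Nup42 was the 1 member that passed it.

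**Figure D1:**
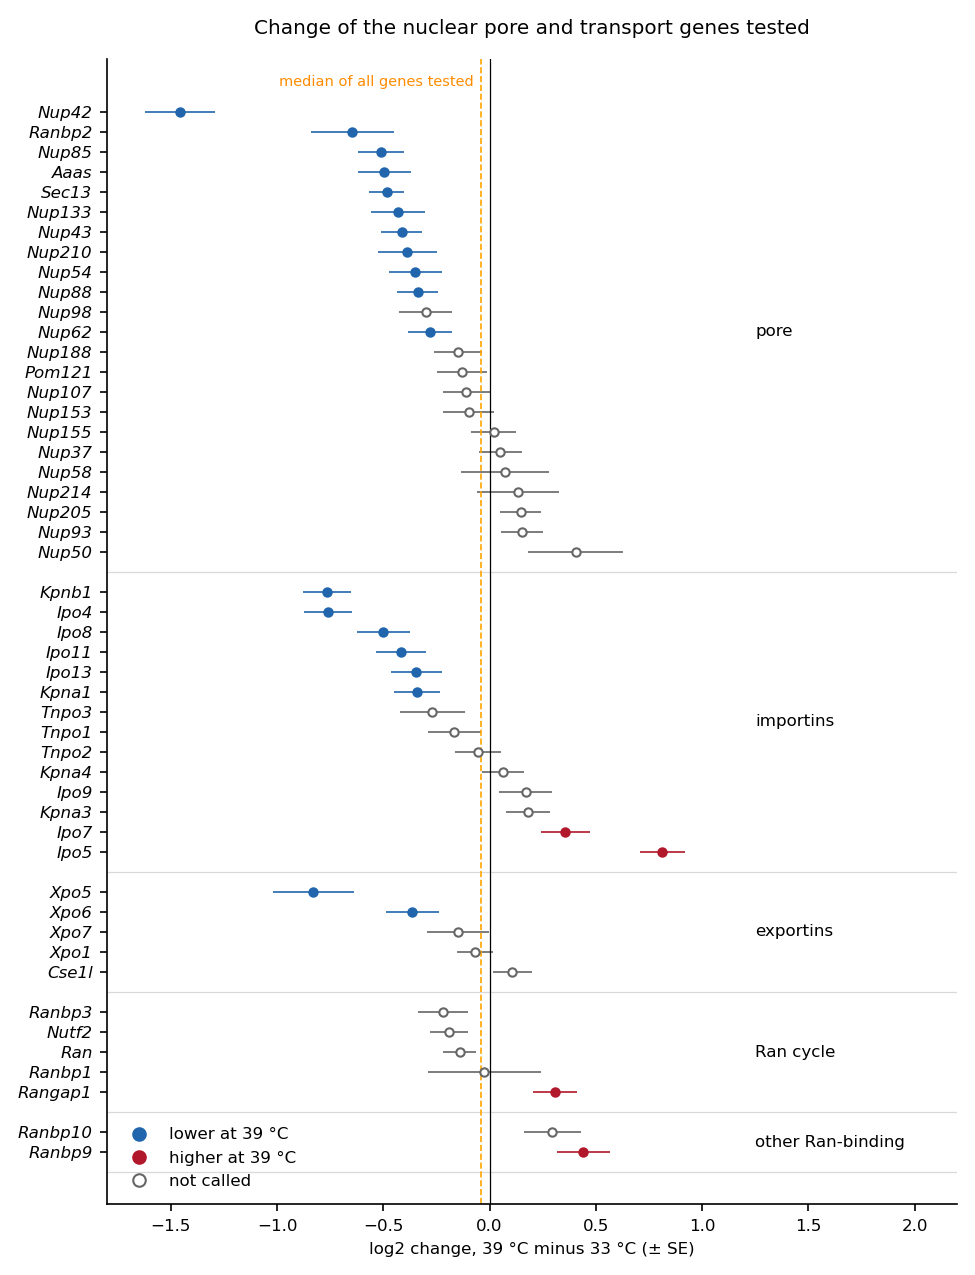
Change in log2 level (39 °C minus 33 °C, ± SE from limma, 2 arrays each) of the 49 genes tested, grouped by class and ordered by size. Filled points passed the test, blue lower and red higher at 39 °C, open points did not, and the dashed line is the median of all genes tested. The called pore genes all lie left of 0, from -1.46 for Nup42 to -0.28 for Nup62, while importins were called on both sides.

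How many members were called depended on how the arrays were scaled, because the median of all genes moved. Quantile normalization put it at -0.04 and the scale as deposited at 0.02, while centring every array at its median put it at -0.13 and scaling to the 24 poly-A control probe sets at -0.36. The labels do not say whether poly-A spikes were added. In this order, 49.1%, 49.8%, 52.3% and 59.3% of all genes were called, with 26.1%, 23.7%, 33.1% and 47.9% lower and 23.1%, 26.0%, 19.2% and 11.4% higher. Beside these, 19, 18, 24 and 36 members were called lower and 4, 5, 2 and 1 higher. The members' median lay below that of all genes by -0.11 after quantile normalization and by -0.20 under the other scalings, which differ from each other by 1 shift per array. Of the 19 members called lower, 16 were called lower under all 4 scalings, 9 of them in the pore and 5 among the importins. Of the 4 called higher, Ipo5 alone was called higher under all 4. The poly-A probe sets averaged 6.99 and 7.09 at 39 °C, against 6.63 and 6.69 at 33 °C, near the limit for dim genes of 6.6.

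**Figure D2:**
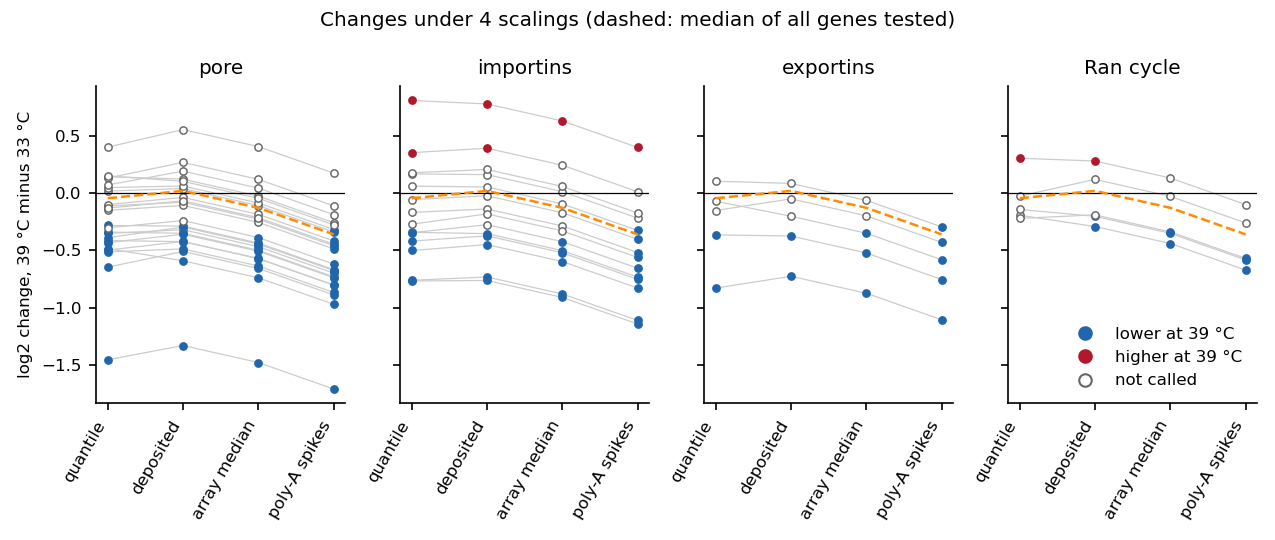
Log2 change (39 °C minus 33 °C) of the tested pore, importin, exportin and Ran cycle genes under 4 scalings of the arrays, 1 panel per class, with lines joining a gene, blue and red points for genes called lower and higher at 39 °C, and open points for genes not called. The dashed line is the median of all genes tested, and the members shift along with it.

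Promoters are shown for some of the members that moved, to give the sequence before their start sites. They are Nup42 and Nup88 of the cytoplasmic side of the pore and the exportin Xpo5, which fell, and the importin Ipo7, which was called higher. Each of these holds a motif that was searched for, while the promoters of Nup85, Aaas, Sec13 and Ipo4, which also fell, held none. The sequences are the 250 bases before the annotated start in RefSeq (assembly GRCr8), 5′ to 3′ on the gene's strand, with the motifs found in capitals. They lie at chr4:11894992-11895241 on the minus strand (Nup42), chr10:56190830-56191079 on the minus strand (Nup88), chr9:22275746-22275995 on the minus strand (Xpo5) and chr1:173497222-173497471 on the plus strand (Ipo7), each just outside the annotated gene.
Nup42: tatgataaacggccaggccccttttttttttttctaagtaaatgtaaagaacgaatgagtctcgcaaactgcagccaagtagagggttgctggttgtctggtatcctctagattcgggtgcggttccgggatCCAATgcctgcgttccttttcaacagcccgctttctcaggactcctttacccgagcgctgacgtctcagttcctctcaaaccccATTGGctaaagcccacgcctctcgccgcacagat
Nup88: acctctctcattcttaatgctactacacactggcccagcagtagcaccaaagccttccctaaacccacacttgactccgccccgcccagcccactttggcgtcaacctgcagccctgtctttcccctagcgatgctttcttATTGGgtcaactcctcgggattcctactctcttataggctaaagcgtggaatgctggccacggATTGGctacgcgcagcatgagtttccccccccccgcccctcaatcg
Xpo5: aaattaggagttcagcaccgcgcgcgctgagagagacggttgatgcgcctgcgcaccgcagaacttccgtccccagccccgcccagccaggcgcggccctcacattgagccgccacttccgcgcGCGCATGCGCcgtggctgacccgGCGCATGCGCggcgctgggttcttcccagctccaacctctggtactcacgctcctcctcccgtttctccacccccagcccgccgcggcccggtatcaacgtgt
Ipo7: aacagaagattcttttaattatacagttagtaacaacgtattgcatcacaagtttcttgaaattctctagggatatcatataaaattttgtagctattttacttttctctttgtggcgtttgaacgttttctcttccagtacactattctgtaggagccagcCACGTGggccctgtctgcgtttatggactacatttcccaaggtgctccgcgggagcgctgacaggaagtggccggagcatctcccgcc

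The capitals mark CCAAT, the box that NF-Y binds, or its reverse complement ATTGG, in Nup42 (118 and 34 bases before the start) and Nup88 (109 and 46). In Xpo5 they mark the palindromic NRF1 motif, the site of the growth-linked factor of that name (126 and 103), and in Ipo7 CACGTG, the E-box that MYC and MAX bind (88). Both strands were searched, and of the 50 member genes 45 had a promoter entry, with 19 of these windows wholly outside the annotated span of the gene. CACGTG was found in 13.3% of the 45 member promoters and in 5.79% of 27457 promoters of the same length. It was in 2 of 17 promoters of members called lower (Nup54 and Ranbp2), in 1 of 4 of those called higher (Ipo7), and in 3 of 23 not called (Ran, Nup50 and Nup188). CCAAT was found in 44.4% of member promoters and in 34.3% of all. The NRF1 motif was in 1 of the 45 member promoters (2.22%), that of Xpo5 shown above, and in 0.849% of all. By call, CCAAT was in 6 of 17 promoters of members called lower (35.3%), in 1 of 4 of those called higher and in 13 of 23 not called (56.5%). The share among members that fell was thus near that of all promoters. The heat shock element, which the heat-induced factor HSF1 binds, was in 0 member promoters and in 0.597% of all. A match is a description of the letters and not a site of binding.

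The largest change of any member was that of Nup42, a nucleoporin of the cytoplasmic face where mRNA leaves the channel. Its deposited intensities were 149.3 and 131.3 at 39 °C, against 367.6 and 386.4 at 33 °C. The log2 levels were 7.27 and 7.16 at 39 °C and 8.64 and 8.70 at 33 °C, so the arrays of the temperatures lay far apart relative to the spread within each. The fall was 2.75-fold, a log2 change of -1.46 ± 0.17 (SE) with an adjusted p of 3.11e-05 by limma. It was called under each alternative that tested it, and at -1.40 to -1.53 with any 1 array left out.

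Other genes of the cytoplasmic side were lower as well. Ranbp2, the giant filament protein that holds sumoylated Rangap1 at the pore, was at 7.51 and 7.59 at 39 °C and at 8.43 and 7.97 at 33 °C (log2 change -0.65 ± 0.19, adjusted p 0.0165 by limma). The 2 arrays at 33 °C were far apart, and its call was lost without permissive replicate 1 (-0.41), without nonpermissive replicate 1 (-0.62) and without nonpermissive replicate 2 (-0.68). Aaas encodes ALADIN, mutated in human triple-A syndrome, and was at 8.92 and 8.91 at 39 °C and at 9.32 and 9.50 at 33 °C (-0.50 ± 0.12, adjusted p 0.0065 by limma). Nup88, which anchors the export platform together with Nup214, fell by 0.34 on the log2 scale, a call lost without nonpermissive replicate 1 (-0.34) and without nonpermissive replicate 2 (-0.35). Nup214 itself was at 8.04 and 7.99 at 39 °C and at 8.13 and 7.64 at 33 °C, a change of 0.13 ± 0.19 (SE) that did not pass. In all, 4 of 5 genes of the cytoplasmic side were called lower, with a median of -0.50. Of all genes tested, 26.1% were lower, and the difference from this share was not tested.

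The Y complex forms the outer scaffold rings on both faces of the pore. Of its 6 members with a probe set 4 were lower (median -0.42), where 26.1% of all genes tested were lower. Nup85, a subunit of its short arm, was at 9.55 and 9.67 at 39 °C and at 10.14 and 10.10 at 33 °C, a log2 change of -0.51 ± 0.11 (SE, adjusted p 0.00236 by limma). Sec13, which also belongs to the COPII coat of vesicles leaving the endoplasmic reticulum, was at 11.78 and 11.75 at 39 °C and at 12.26 and 12.24 at 33 °C (-0.48 ± 0.08). Nup43 and Nup133 fell by 0.41 and 0.43 on the log2 scale. The Nup133 call was lost without nonpermissive replicate 1 (-0.34). For Nup85, Sec13 and Nup43 the arrays did not overlap, and the calls held under all 16 alternatives. Nup107, a subunit of its stem, was at 9.69 and 9.70 at 39 °C and at 9.74 and 9.88 at 33 °C, a change of -0.11 ± 0.11 (SE) that did not pass, and Nup37 was at 0.05 ± 0.10 (SE).

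The inner ring, which joins the outer rings to the channel, had 0 calls among 4 genes by limma, and 0 at an unadjusted p under 0.05. Of all genes tested, 49.1% were called, and 4 genes are few to set against this share. Nup93, its linker, was at 11.33 and 11.16 at 39 °C and at 11.15 and 11.03 at 33 °C, a change of 0.15 ± 0.10 (SE). Nup205 was at 0.15 ± 0.10, Nup155 at 0.02 ± 0.11 and Nup188 at -0.15 ± 0.11 (SE). The difference between the inner ring and the Y complex was not tested. Under poly-A scaling Nup155 and Nup188 were called lower (-0.34 and -0.49), and Nup93 and Nup205 were at -0.28 and -0.26 without a call.

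In the central channel, Nup62 was at 10.35 and 10.53 at 39 °C and at 10.68 and 10.76 at 33 °C. The log2 change of -0.28 ± 0.10 (SE) passed narrowly (adjusted p 0.0426 by limma) and was lost without permissive replicate 1 (-0.32), permissive replicate 2 (-0.24) or nonpermissive replicate 1 (-0.20). Its partner Nup54 fell by 0.35 on the log2 scale, a call that did not hold without permissive replicate 2 (-0.23) or without nonpermissive replicate 1 (-0.26), nor on the deposited scale (-0.32). Nup58, the remaining partner, was at 0.07 ± 0.21 (SE) and did not pass. Of the membrane anchors, Nup210 fell by 0.39 on the log2 scale, a call lost without permissive replicate 1 (-0.27) and without either nonpermissive array (-0.40 and -0.37) and on the deposited scale (-0.29), and Pom121 was at -0.13 ± 0.12 (SE). The nuclear basket genes did not pass, Nup153 at 9.20 and 9.34 at 39 °C and at 9.41 and 9.32 at 33 °C (-0.10 ± 0.12, SE), and Nup50, which also helps importin alpha release its cargo, at 0.40 ± 0.22 (SE). Nup98, whose transcript also encodes the Y complex subunit Nup96, was at 9.0 and 9.22 at 39 °C and at 9.45 and 9.38 at 33 °C, a change of -0.30 ± 0.13 (SE, adjusted p 0.068 by limma). The Nup98 arrays did not overlap, and it was called lower under median centring (-0.39) and poly-A scaling (-0.62).

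**Figure D3:**
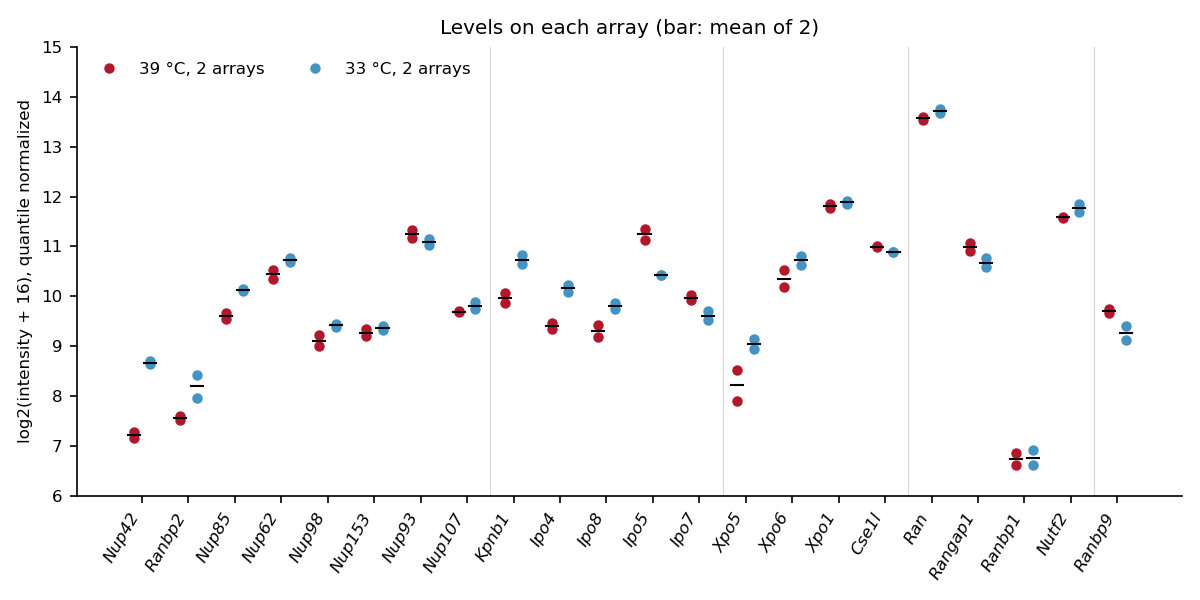
Log2 level of 22 members on each of the 4 arrays, red for 39 °C and blue for 33 °C, with the mean of 2 arrays as a bar. Nup42, Kpnb1 and Ipo4 lie lower at 39 °C and Ipo5 higher, with gaps between temperatures wider than those between replicates, and the levels of different genes cannot be compared.

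Among the importins the main import receptor was lower. Kpnb1 encodes importin beta, which carries importin alpha with its cargo and also takes some cargo alone. Its deposited intensities were 1051 and 931 at 39 °C, against 1805.7 and 1580.7 at 33 °C. The log2 levels were 10.06 and 9.87 at 39 °C and 10.82 and 10.64 at 33 °C, 1.70-fold lower at 39 °C (-0.77 ± 0.11, adjusted p 0.000202 by limma). Another Kpnb1 probe set was at 9.49 and 9.66 at 39 °C and at 10.39 and 10.29 at 33 °C, with a change of -0.76. The call held without each array in turn (-0.66 to -0.87).

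Ipo4, which imports ribosomal proteins and histones, was lower by nearly as much. It was at 9.34 and 9.46 at 39 °C and at 10.23 and 10.09 at 33 °C, a log2 change of -0.76 ± 0.11 (SE, adjusted p 0.000226 by limma). Ipo8 was at 9.18 and 9.43 at 39 °C and at 9.87 and 9.74 at 33 °C (-0.50 ± 0.13), and Ipo11 fell by 0.42 on the log2 scale. Without nonpermissive replicate 1 the calls of Ipo8 (-0.38) and Ipo11 (-0.34) were lost. Ipo13, which works in both directions, had a change of -0.34 ± 0.12 (SE), a call lost without any 1 of the 4 arrays (-0.30 to -0.39) and on the deposited scale (-0.27).

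Related importins went the other way. Ipo5, a receptor for ribosomal proteins and histones, had deposited intensities of 2160.5 and 2575.1 at 39 °C, against 1372.2 and 1356.8 at 33 °C. The log2 levels were 11.13 and 11.36 at 39 °C and 10.43 on both arrays at 33 °C, 1.76-fold higher at 39 °C (0.81 ± 0.10, adjusted p 7.70e-05 by limma). It was called higher under every scaling, at 0.40 under poly-A scaling. Ipo7, which is close in sequence to Ipo8 and can pair with importin beta, was at 10.03 and 9.92 at 39 °C and at 9.52 and 9.71 at 33 °C (0.36 ± 0.12). The Ipo7 call was lost without permissive replicate 1 (0.26) and without either nonpermissive array (0.30 and 0.41). It was lost as well under median centring (0.25) and under poly-A scaling (0.01).

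Of the importin alphas, which read the classical nuclear localization signal, Kpna1 fell by 0.34 on the log2 scale, and the call did not hold without permissive replicate 2 (-0.24) or without nonpermissive replicate 2 (-0.29). Kpna3 was at 0.18 ± 0.11 and Kpna4 at 0.06 ± 0.10 (SE), and neither passed. The transportins, which import mRNA-binding proteins (Tnpo1, Tnpo2) and splicing factors rich in serine and arginine (Tnpo3), did not pass, at -0.17 ± 0.13, -0.05 ± 0.11 and -0.27 ± 0.15 (SE). Without permissive replicate 2 Tnpo3 was called lower (-0.44). Ipo9 was at 0.17 ± 0.12 (SE).

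Xpo5, the exportin for microRNA precursors, had the largest fall among the exportins. It was at 8.52 and 7.91 at 39 °C and at 8.94 and 9.15 at 33 °C, 1.78-fold lower at 39 °C (-0.83 ± 0.19, adjusted p 0.00397 by limma). The arrays at 39 °C differed among themselves, and leaving out nonpermissive replicate 2 gave -0.52 and leaving out nonpermissive replicate 1 gave -1.15, called in both cases. Xpo6, the exportin for actin and profilin, was at 10.52 and 10.19 at 39 °C and at 10.63 and 10.81 at 33 °C (-0.36 ± 0.12), and its call did not hold without permissive replicate 2 (-0.27) or without nonpermissive replicate 2 (-0.20). Xpo1 (CRM1), the general exportin for proteins with a leucine-rich signal and for ribosomal subunits, was at 11.86 and 11.78 at 39 °C and at 11.92 and 11.86 at 33 °C, a change of -0.07 ± 0.09 (SE) that did not pass. Xpo1 was called lower under median centring (-0.35) and poly-A scaling (-0.58). Cse1l, which returns importin alpha to the cytoplasm, had deposited intensities of 1995.3 and 1993.5 at 39 °C, against 1883.9 and 1869.1 at 33 °C (log2 change 0.11 ± 0.09, SE, not called), and under poly-A scaling its change turned to -0.29 with a call. Xpo7 was at -0.15 ± 0.15 (SE).

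The Ran cycle had 1 call among its 5 members with a probe set, where 49.1% of all genes tested were called. Rangap1, the GTPase-activating protein of Ran, was at 11.06 and 10.90 at 39 °C and at 10.58 and 10.76 at 33 °C (0.31 ± 0.11, adjusted p 0.0309 by limma). The Rangap1 call did not hold without permissive replicate 1 (0.22) or without nonpermissive replicate 1 (0.23), and its change was 0.13 under median centring and -0.10 under poly-A scaling. Ran had deposited intensities of 11750.2 and 12127.7 at 39 °C, against 14188.9 and 13284.4 at 33 °C. Its log2 levels were 13.54 and 13.60 at 39 °C and 13.76 and 13.67 at 33 °C, a change of -0.14 ± 0.08 (SE) that did not pass. Ran was called lower under the other scalings (-0.20, -0.35 and -0.58), so its call rests on the scaling.

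Nutf2 encodes NTF2, which carries Ran-GDP back into the nucleus. It was at 11.59 and 11.58 at 39 °C and at 11.86 and 11.70 at 33 °C (-0.19 ± 0.09, SE, not called). Another Nutf2 probe set was at 8.58 and 8.40 at 39 °C and at 8.92 and 9.07 at 33 °C, with a change of -0.50 that passed when every probe set was fitted on its own (adjusted p 0.0112 by limma, where 48.0% of probe sets were called and 25.5% were lower). Nutf2 was called lower on the deposited scale (-0.29), under median centring (-0.44) and under poly-A scaling (-0.67). Ranbp1, a Rangap1 cofactor, lay close to the limit for dim genes at 6.62 and 6.86 at 39 °C and at 6.62 and 6.91 at 33 °C, with a change of -0.02 ± 0.27 (SE). The interval of Ranbp1 is wide. Ranbp3, a cofactor of Xpo1, was at -0.22 ± 0.12 (SE) without a call, and was called lower under median centring (-0.34) and poly-A scaling (-0.57). Ranbp9, a subunit of the CTLH ubiquitin ligase that was named for binding Ran, was at 9.67 and 9.74 at 39 °C and at 9.40 and 9.13 at 33 °C (0.44 ± 0.13, adjusted p 0.0132 by limma). The Ranbp9 call did not hold without permissive replicate 2 (0.30) or without nonpermissive replicate 2 (0.41), nor under poly-A scaling (0.11). Its relative Ranbp10 was at 0.29 ± 0.13 (SE) and did not pass.

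Of the member genes, 6 had more than 1 probe set, 14 in all, and these did not always move alike. The Kpnb1 probe sets differed by less than the spread between replicates. For Xpo1, a dimmer probe set was at 10.97 and 10.94 at 39 °C and at 10.17 and 10.88 at 33 °C, a change of 0.43 that did not pass when fitted on its own (adjusted p 0.0634 by limma), against -0.07 for the probe set used. The higher value rests on the low permissive replicate 1. The further Nup98 probe set (-0.59), a further Nup37 one (-0.02) and Nup58 ones (-0.53 and 0.32) lay below the limit for dim genes, and a further Nup58 one above it was at -0.19.

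**Figure D4:**
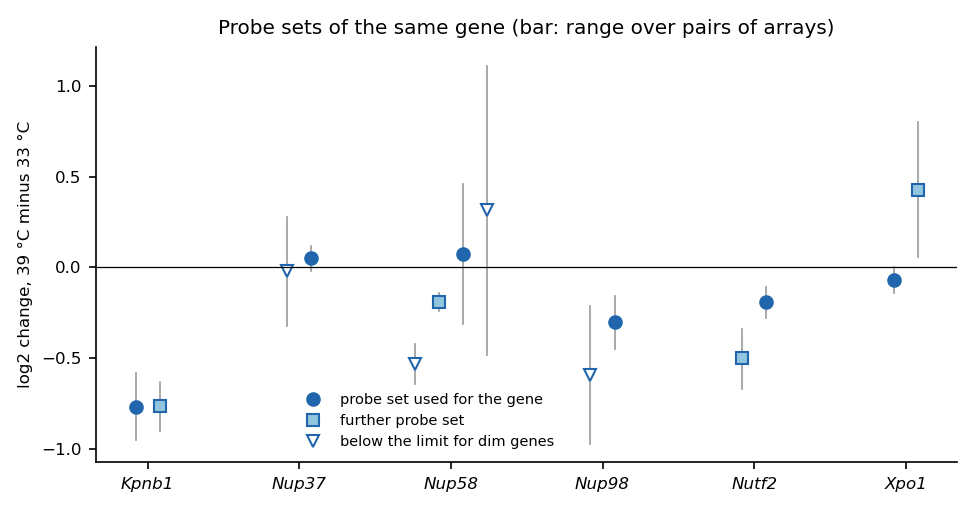
Log2 change (39 °C minus 33 °C) of every probe set of the 6 genes with more than 1, filled circles for the probe set used for the gene, squares for further ones and open triangles for those below the limit for dim genes. Bars run from the smallest to the largest difference over pairs of arrays. The Kpnb1 probe sets lie together near -0.77, and those of Xpo1 lie on opposite sides of 0.

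Other genes of the pathway were taken from lists of known factors. Of pore components not covered by the symbols above, 3 were tested, and Seh1l, a Y complex subunit, fell by 0.60 on the log2 scale. Gle1, which Nup42 binds in yeast and human cells, was at -0.20 ± 0.15, and Tpr, the main filament of the basket, at 0.02 ± 0.14 (SE), and neither passed. Of 17 mRNA export factors tested, 10 were lower (58.8%) and 1 higher (5.88%), with a median of -0.32, where 26.1% of all genes were lower and 23.1% higher. Without permissive replicate 2 the calls in this list came to 7, against 11 with all arrays. Eny2, a subunit shared by the SAGA and TREX-2 complexes, was at 9.96 and 10.05 at 39 °C and at 10.95 and 11.13 at 33 °C, 2.05-fold lower at 39 °C (-1.04 ± 0.11, adjusted p 1.44e-05 by limma). Ddx39b (UAP56), the helicase that loads export adaptors on spliced mRNA, was at 11.13 and 11.15 at 39 °C and at 12.14 and 11.97 at 33 °C (-0.91 ± 0.09). Thoc7, of the THO complex, was at 12.52 and 12.42 at 39 °C and at 11.65 and 11.82 at 33 °C (0.73 ± 0.09), and was at 0.25 without a call under poly-A scaling. The export receptor Nxf1 did not pass (0.22 ± 0.11, SE).

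Genes of the nuclear lamina and envelope moved in both directions, with 4 of 12 lower (33.3%) and 5 higher (41.7%, median 0.08). Of all genes tested, 26.1% were lower and 23.1% higher. The B-type lamin Lmnb2 was at 8.33 and 8.77 at 39 °C and at 9.57 and 9.53 at 33 °C, 1.995-fold lower at 39 °C (-0.997 ± 0.15), and the giant nesprin Syne1 was at -0.88 ± 0.21. Emd (emerin) was at 10.38 and 10.47 at 39 °C and at 9.52 and 9.56 at 33 °C, 1.85-fold higher at 39 °C (0.89 ± 0.11), and Sun2, which links the lamina to the cytoskeleton, was at 0.56 ± 0.13, without a call (0.27) under poly-A scaling. Lmnb1 and Tmpo, counted as higher, each had a probe set that pointed the other way. The Lmnb1 probe sets were at 0.40, -0.07 and -0.52 and those of Tmpo at 0.48 and -0.67, and under poly-A scaling the Lmnb1 value used turned to -0.0877. Of 8 SUMO enzymes and transport cofactors 3 were lower (37.5%, beside 26.1% of all genes tested) and 0 higher. At an unadjusted p under 0.05 by limma, 0 were higher as well. Neither list was tested against the share of all genes. The falls among the cofactors were led by Ltv1, a cofactor of small ribosomal subunit assembly (-0.91 ± 0.18), and Rangrf (MOG1), which binds Ran and promotes release of its nucleotide (-0.88 ± 0.15).

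**Figure D5:**
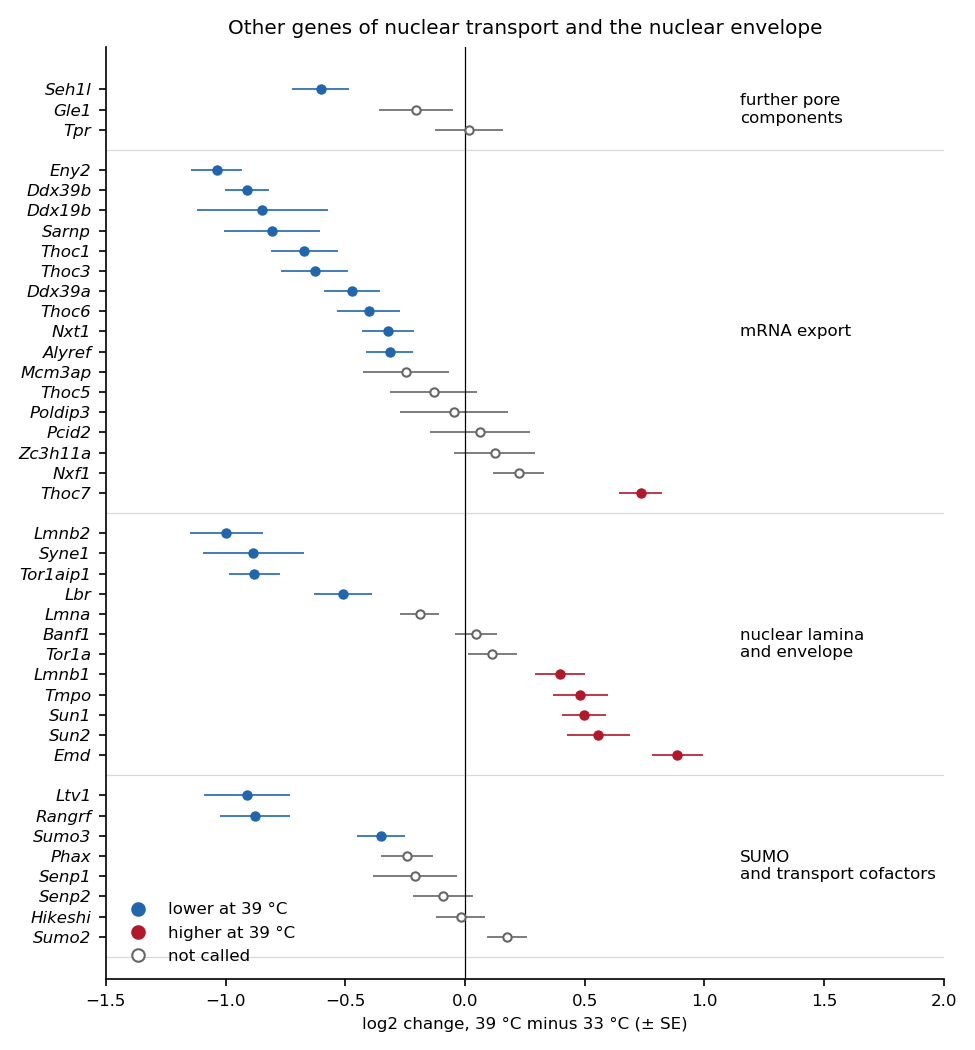
Log2 change (39 °C minus 33 °C, ± SE, 2 arrays each) of 40 further genes of nuclear transport and the nuclear envelope, blue and red where called lower and higher at 39 °C and open where not called. The mRNA export factors lie mostly left of 0, from -1.04 for Eny2 to 0.73 for Thoc7, and the envelope genes spread from -0.997 for Lmnb2 to 0.89 for Emd.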

How the data were processed

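Total RNA was labelled by a one-cycle 3′ protocol and hybridised to an Affymetrix rat array, per the labels' protocols, 1 array per sample. The authors deposited 1 linear intensity per probe set and array, without detection calls. For the probe summary and its scaling, the software was not given in the sources used here. The array medians of log2 values differed by 0.175, so log2(intensity + 16) of the 15866 probe sets that are not controls was quantile normalized. Fold and log2 changes understate those of dim genes. Probe sets took their symbols from GEO's platform annotation, and by Entrez identifier 12748 of 12783 with 1 symbol matched RefSeq (GRCr8). For each gene the brightest probe set over all arrays was used, and genes under the 40th percentile (log2 6.6) were left out as dim. Temperatures were compared with limma 3.58.1 in R 4.3.3 (lmFit, eBayes with an intensity trend, two-sided, Benjamini-Hochberg over 7016 genes). The procedure was tested on simulated data in which a small share of genes changed, in equal numbers up and down. Such data cannot show how the scaling affects calls where 49.1% of genes were called. The motif letters searched were CACGTG and CCAAT, and the NRF1 and heat shock motifs by name.

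Values on all 4 arrays are given for the 3 called members of each class with the largest fall and rise. They are also given for a fixed set of central genes. Kpna2 and Rcc1 of that set had no probe set annotated to them alone. Of the other lists, up to 2 called genes with the largest change in each direction are named, some by log2 change alone. The members and lists were chosen with earlier results of these data known. Alternatives were 3 other scalings, adding 1 or 64, other dim filters, other uses of probe sets, a fit without trend, a block for the replicate number, and each array left out. Figures used matplotlib 3.10.9.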

Additional observations from a re-analysis of the deposited data

How the results depend on the processing

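Of the 23 called members, 9 were called in the same direction under every alternative that tested them: Nup42, Nup85, Aaas, Sec13, Nup43, Kpnb1, Ipo4, Xpo5 and Ipo5. With any 1 array left out, where the lone array is assumed to vary like the others, the counts ranged over 10 to 15 members lower and 2 to 3 higher, 5 to 9 pore genes lower, 3 to 5 importins lower and 1 to 2 higher, 1 to 2 exportins lower, 0 to 1 Ran cycle and 0 to 1 other Ran-binding genes higher, 7 to 12 mRNA export factors and 2 to 3 SUMO genes and cofactors called, and 1448 to 1662 genes in all lower and 1189 to 1546 higher. The lowest counts of members, pore genes and importins lower (10, 5 and 3) came without nonpermissive replicate 1, and the lowest of mRNA export factors (7) without permissive replicate 2. With arrays scaled to the spike-ins, 36 members were lower and 1 higher, 18 pore genes, 10 importins, 5 exportins and 3 Ran cycle genes were lower, 1 importin, 0 Ran cycle and 0 other Ran-binding genes were higher, 2 further pore components and 7 SUMO genes and cofactors were called, and of all genes 3359 were lower and 800 higher. This scaling put 44 of 49 members below 0, against 33 after quantile normalization. Among genes called before or after, it turned the changes of Banf1 (-0.44), Cse1l (-0.29), Kpna4 (-0.33), Nup155 (-0.34), Nup37 (-0.32), Sumo2 (-0.33), Lmnb1 (-0.0877) and Rangap1 (-0.0981). Among members called under neither, it turned Ipo9 (-0.22), Kpna3 (-0.17), Nup58 (-0.19), Nup214 (-0.11), Nup205 (-0.26) and Nup93 (-0.28). Nup107 (-0.46), Nup153 (-0.42), Pom121 (-0.45), Tnpo1 (-0.52), Tnpo2 (-0.40), Tnpo3 (-0.56) and Xpo7 (-0.43) were called lower under this scaling, but not after quantile normalization. Poly-A scaling and median centring only shift whole arrays. With median centring 3 Ran cycle genes were lower and 0 higher, 2 members and 1 importin were higher. On the deposited scale 2 Ran cycle genes were lower and 2 other Ran-binding genes higher. Without a dim filter 7 pore genes and 1 exportin were lower and 0 Ran cycle genes higher. Without the intensity trend 2 members, 1 importin and 0 Ran cycle genes were higher and 1 exportin was lower. With probe sets averaged per gene, or each fitted, 1 Ran cycle gene (Nutf2) was lower, and the mean turned Alyref (0.00158), Lmnb1 (-0.0642) and Tmpo (-0.0963), whose probe sets disagree. For other shifts the cause was not tested. With the replicate block 19 members were lower and 4 higher, and no member's call changed. Same-numbered arrays share only a number, and their deviations correlated at -0.0064.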

Other observations

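The only probe set for importin alpha 1, the classical import adaptor and a marker of dividing cells, is annotated to both Kpna2 and Kpna2l1 and was therefore not a member. Its deposited intensities were 2544.2 and 2988.6 at 39 °C, against 4386.2 and 3880.9 at 33 °C. The log2 levels were 11.37 and 11.60 at 39 °C and 12.04 and 11.86 at 33 °C, so the temperatures did not overlap. The difference of -0.47 was not tested.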
